A study of Mus musculus with 6 samples.

Results

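The large MAF gene Maf and the C/EBP genes Cebpa, Cebpb, Cebpd, Cebpe and Cebpg were followed as 6 of the 49585 genes counted in microglia, the resident macrophages of the brain. They were chosen by name as members of the large MAF and C/EBP families, with earlier results of these data known. All 6 had counts in at least 1 library, and 5 passed the filter on low counts, so that Cebpe has levels and no test. The RNA came from bulk microglia of male mice aged 3 months, freed from each brain with no enzyme digestion and then sorted. The groups were WT (3 libraries) and IRF8KO (3 libraries), with no treatment, and the comparison asks which transcripts differ between the genotypes. The labels name no strain, allele, promoter or Cre for IRF8KO. IRF8 is an interferon regulatory factor of the macrophage lineage.

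C/EBP and MAF proteins are basic leucine zipper (bZIP) transcription factors, which bind DNA as dimers held together by a zipper of leucines. C/EBP-alpha is required early in the myeloid lineage, C/EBP-beta and C/EBP-delta are induced by inflammatory signals and drive acute-phase and cytokine genes, C/EBP-epsilon acts in late granulocytes, and C/EBP-gamma lacks a classical activation domain and mostly works through its partners. C/EBP-beta is made from a gene of 1 exon as a longer activating and a shorter inhibitory protein by choice of the translation start, which a transcript count cannot separate. MAF is a large MAF protein with its own activation domain that in macrophages is linked to Il10, complement and scavenger receptor genes and to restraint of self-renewal.

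The promoters of Cebpb, the member that passed the test, and of Cebpa, its relative that did not, are shown for comparison. Each run is the 250 bases before the annotated start on the plus strand of GRCm38.p6, from RefSeq: chr2:167688665-167688914 for Cebpb and chr7:35119043-35119292 for Cebpa. Capitals mark TGACG, the core of the cyclic AMP response element, on either strand in Cebpb, and the TATA box TATAAA in Cebpa.
Cebpb: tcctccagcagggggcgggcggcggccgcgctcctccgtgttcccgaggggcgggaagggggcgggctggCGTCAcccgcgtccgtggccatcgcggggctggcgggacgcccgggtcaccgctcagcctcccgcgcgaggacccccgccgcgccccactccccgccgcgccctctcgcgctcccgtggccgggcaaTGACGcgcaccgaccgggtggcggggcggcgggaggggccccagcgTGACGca
Cebpa: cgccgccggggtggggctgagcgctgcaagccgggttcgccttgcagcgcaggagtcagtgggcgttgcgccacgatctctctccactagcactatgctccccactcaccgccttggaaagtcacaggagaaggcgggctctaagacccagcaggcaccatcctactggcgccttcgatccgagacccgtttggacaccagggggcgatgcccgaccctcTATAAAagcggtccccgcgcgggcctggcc
The Cebpb promoter held TGACG 3 times, with its leftmost base 7 and 53 bases before the start on the plus strand, and 180 bases before it on the minus strand, where the run reads CGTCA. The motif TGACG occurred in 17.8% of 32851 mouse promoter windows of this length and was added to the search after this sequence had been seen. TATAAA began 30 bases before the start of Cebpa and occurred in 12.4% of windows. Neither window held, on either strand, the C/EBP palindrome TTGCNNAA, the full cyclic AMP element TGACGTCA, the CCAAT box, the MAF core TGCTGA, the ETS core AGGAAGT, the AP-1 site TGANTCA or the core of the interferon-stimulated response element (ISRE); those letters are absent from these windows and no more. G and C made up 81.6% of the Cebpb window and 66.4% of the Cebpa window. RefSeq's table matched 3 of the 6 members, with Cebpg the other.

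The libraries held 3658917 to 11098363 gene counts each. Irf8 itself was not called lower: WT had 1016 ± 336 CPM (library-scaled counts on a common scale, by TMM) and the libraries labelled IRF8KO had 747 ± 99.9 CPM (SD, n = 3; log2 difference −0.44, edgeR adjusted p = 0.368). A count over the whole gene cannot show a deleted exon, so every direction below rests on the labels. Microglial markers were present in both groups: all 12 of the list were tested, 5 were called lower and 1 higher, with Sall1 at 0 counts in IRF8KO. Of 12 border macrophage markers 8 were tested and all 8 were called higher, with Lyve1 and Cd209f at 0 in every library. Immediate early genes were high in WT replicates 1 and 2, as given with that list below. WT replicate 3 departed from its group upward in GC-rich genes (Spearman correlation 0.615 of its difference with GC content across 11034 genes), and IRF8KO replicate 2 departed downward (−0.435); genes are not independent replicates, and the labels give no batch.

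Cebpb was the 1 member called higher. Cebpb (ENSMUSG00000056501, chr2:167688915-167690418, plus strand, GRCm38, a single exon) had 106, 104 and 153 CPM in WT replicates 1, 2 and 3, and 928, 769 and 559 CPM in IRF8KO replicates 1, 2 and 3. The lowest IRF8KO library stood well above the highest WT library, so the groups did not overlap. The means were 121 ± 27.4 and 752 ± 185 CPM (SD, n = 3), a 6.21-fold difference in the fit. The log2 fold change was 2.63 (SE 0.33, 95% interval 1.91 to 3.35, edgeR quasi-likelihood, Benjamini-Hochberg adjusted p = 2.6e-04). Among all tested genes ranked by mean CPM, Cebpb moved from the percentile 89.5 in WT to 98.8 in IRF8KO. Summed counts behind these values were 3128 for WT and 19502 for IRF8KO. For scale, 2109 of 11041 genes (19.1%) were called, 1064 (9.64%) higher and 1045 (9.46%) lower, and the groups did not overlap for 4184 genes (37.9%). Of the 5 members tested, 1 was called and 1 had groups that did not overlap, and 0 were called lower (0 also at an unadjusted p under 0.05, in DESeq2 and in limma-voom), so the members' share called was close to that of all genes.

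The call of Cebpb held in all 19 alternatives, with folds from 3.87 to 7.53. Cebpb has 67.2% GC, above 99.9% of tested genes. An offset for GC content and length together lowered the fold to 3.90 (GC alone was not corrected for), whereas leaving out WT replicate 3 and IRF8KO replicate 2, the libraries that departed from their groups with GC, raised it to 7.53. Leaving out WT replicates 1 and 2, those with high immediate early genes, gave 4.96-fold (adjusted p = 0.0036 in the same edgeR test, with the spread of the lone WT library taken from the IRF8KO libraries). Summed border macrophage markers moved with Cebpb, from 612 to 835 CPM among WT libraries to 3819 to 5036 CPM among IRF8KO libraries. Astrocyte markers did so too, at 8.92 to 90.0 CPM in WT and 115 to 194 CPM in IRF8KO, with 4 of 5 tested genes called higher (Aldoc, the most abundant, was not), and so did neuron markers, at 0.35 to 9.10 and 21.4 to 28.7 CPM, with 2 of 4 tested genes called higher. Of the 7 endothelial markers 1 was tested and called lower, Pecam1, which made up most of their sum in WT (18.6 to 30.2 CPM, against 1.77 to 9.98 CPM in IRF8KO), while Flt1 had 0 counts in WT and 152 in IRF8KO. The sums of the oligodendrocyte markers overlapped: Cnp was called lower (186 and 45.2 CPM in WT and IRF8KO on average), while Mbp was at 152 and 437 CPM without overlap and was not called (edgeR adjusted p of 0.0028 and 0.056). Red blood cell markers summed to 0, 0 and 57.5 CPM in WT replicates 1 to 3 and 53.8 to 437 CPM in IRF8KO, with none of the 5 called in the edgeR test, 4 higher at an unadjusted p under 0.05, 0 called in DESeq2 and 3 in limma-voom. The part of these cell types in the Cebpb difference was not tested. In sorted bulk cells, a change in how many cells of a type were present and a change in RNA per cell cannot be told apart.

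Reads over part of Cebpb could not be assigned. The gene Tmem189 lies on the other strand and shares 312 of the 1504 exonic bases of Cebpb, and the libraries keep no strand: over all genes, 49.8 to 50.3% of the counts of both strand columns fell in the first of them. For Cebpb these columns were 6274 and 6277 in IRF8KO replicate 1, and 862 and 668 in WT replicate 1, where they were furthest apart. The unstranded count of Cebpb was 35.8 to 48.8% of the sum of its strand columns, where that share was at least 93.0% for Maf, Cebpa, Cebpd and Cebpg. Reads that touched the shared stretch thus fell out of the count, and the level of Cebpb is understated in both groups. The reads that were counted lie outside the exons of Tmem189. With the strand columns, which hold reads of both genes over the shared stretch, the log2 fold change of Cebpb was 2.51 and 2.61. Tmem189 itself had a mean of 81.1 CPM across WT and 126 CPM across IRF8KO (log2 fold change 0.64, SE 0.34, edgeR adjusted p = 0.213).

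**Figure D1:**
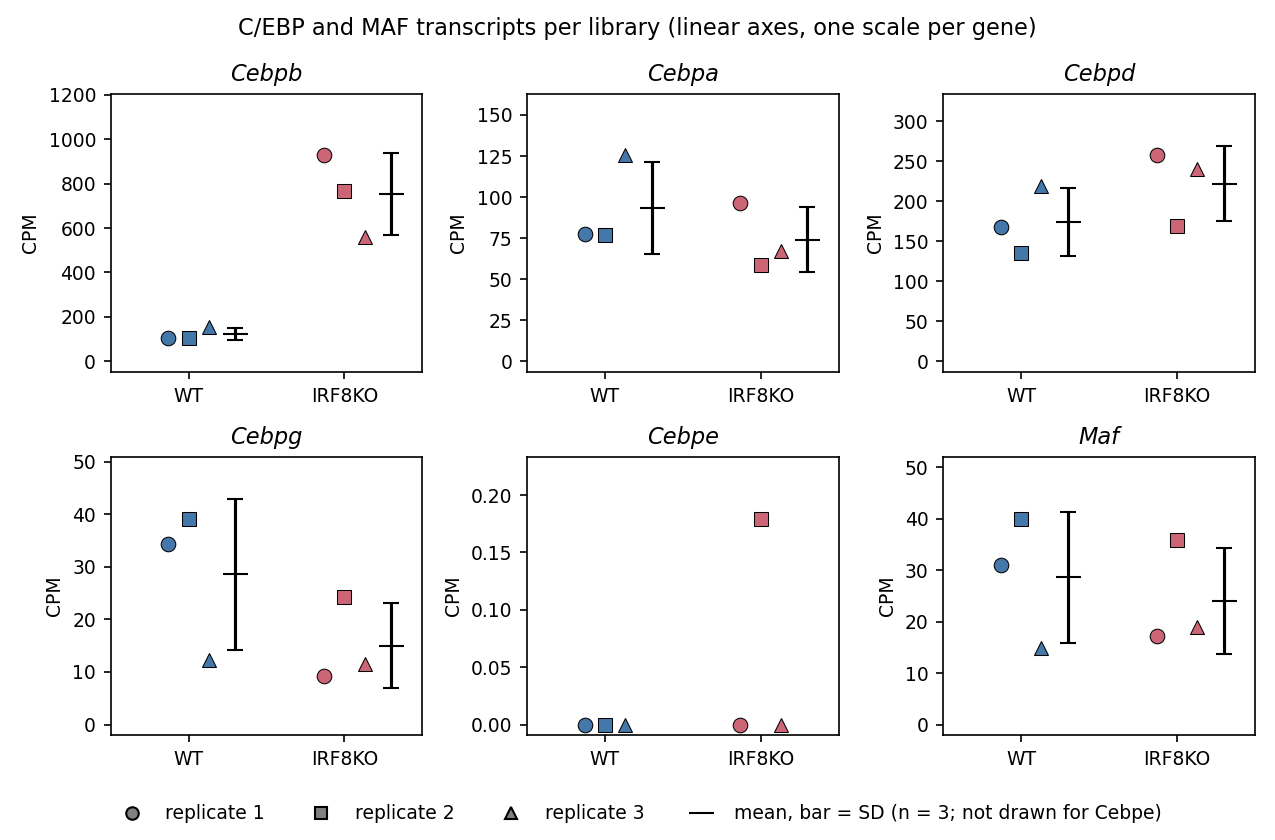
Scaled counts (CPM) of the 6 members in each library, on linear axes with a scale for each gene; circles, squares and triangles are replicates 1, 2 and 3, and bars show the mean and SD (n = 3), which are left out for Cebpe. The IRF8KO libraries sit at 559 to 928 CPM for Cebpb, above the WT libraries at 104 to 153 CPM, while the groups overlap for the other 4 members tested.

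Cebpa and Cebpd, the other abundant members, did not pass the test. Cebpa (ENSMUSG00000034957, chr7:35119293-35121928, plus strand, a single exon) had 77.6, 77.0 and 125 CPM in WT replicates 1, 2 and 3, and 96.5, 58.6 and 67.1 CPM in the IRF8KO replicates in the same order. WT replicate 3 was the highest and IRF8KO replicate 2 the lowest, and the groups overlapped. The log2 fold change of Cebpa was −0.34 (SE 0.31, 95% interval −1.01 to 0.34, edgeR adjusted p = 0.486). Its interval excludes a rise of the size seen for Cebpb. Cebpa has 62.6% GC, above 99.0% of tested genes, and the sign and call of its difference moved with the setting: the log2 fold change was −0.62 with the GC and length offset (adjusted p = 0.045), −0.83 with library size alone (0.013), where the median of all genes was −0.61 against −0.11, and 0.17 without WT replicate 3 and IRF8KO replicate 2 (edgeR adjusted p = 0.563).

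Cebpd (ENSMUSG00000071637, chr16:15887286-15891031, plus strand, a single exon) had 167, 136 and 219 CPM in WT replicates 1 to 3, and 258, 169 and 240 CPM in IRF8KO replicates 1 to 3. IRF8KO replicate 2 lay inside the WT range, and the groups overlapped. The log2 fold change was 0.35 (SE 0.30, 95% interval −0.30 to 1.00, edgeR adjusted p = 0.441). It was called at 0.81 without WT replicate 3 and IRF8KO replicate 2 (adjusted p = 0.0079), was 0.02 without WT replicates 1 and 2, and turned to −0.15 with library size alone. The antisense gene Spidr shares 15.0% of the exonic length of Cebpd, but Spidr was low, with 5.65 to 9.84 CPM across WT and 0.16 to 2.39 CPM across IRF8KO.

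Cebpg, whose protein works as a partner of other bZIP factors, lies on chromosome 7 on the minus strand (ENSMUSG00000056216, chr7:35046422-35056573), 62.7 kb from Cebpa. It had 34.2, 39.2 and 12.3 CPM in WT replicates 1, 2 and 3, and 9.15, 24.2 and 11.6 CPM in IRF8KO replicates 1, 2 and 3. WT replicates 1 and 2 were the highest of the 6 libraries, and WT replicate 3 lay within the IRF8KO range. The log2 fold change of Cebpg was −0.92 (SE 0.49, 95% interval −1.98 to 0.14, edgeR adjusted p = 0.207). Without WT replicate 3 and IRF8KO replicate 2 it was −1.72 and called (adjusted p = 0.0011), with the GC and length offset it was −0.22, and without WT replicates 1 and 2 it turned to 0.33. That last fit, with a lone WT library, was the only alternative that turned the direction of Cebpg. Leaving out any single library kept it negative (−0.63 to −1.45 on the log2 scale).

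Cebpe, the granulocyte member (ENSMUSG00000052435, chr14:54710360-54712174, minus strand), had 0 counts in all WT libraries and in IRF8KO replicates 1 and 3, and 2 counts (0.18 CPM) in IRF8KO replicate 2. The count of 0 over WT allows up to 3 counts. No fold is given. Summed, the 12 genes of the C/EBP-epsilon granule list were also highest in this library: they reached 375 CPM in IRF8KO replicate 2 and 0.14 to 4.98 CPM in the other 5 libraries. In IRF8KO replicate 2, S100a8 had 121 CPM, Ngp 79.2, Camp 58.3, S100a9 57.2 and Ltf 35.3, genes singled out after their values were seen. Mmp9 and Prtn3 were instead highest in IRF8KO replicate 1 (3.05 and 0.80 CPM, against 0.99 and 0.45 in replicate 2). Mmp8 was at 0 in every library, and none of the 12 passed the filter on low counts of the edgeR test, while DESeq2, which filters by its own rule, called 1 higher, and edgeR with no filter called 8. Of the 4 neutrophil markers outside that list, Ly6g (0.90 CPM) and Retnlg (2.24 CPM) had counts in this library alone. Csf3r was abundant in every library. Cxcr2 had 4.13 CPM in IRF8KO replicate 2, 1.61 and 1.74 CPM in IRF8KO replicates 1 and 3 and none in WT. It was called higher, with 72 counts in IRF8KO (edgeR adjusted p = 0.0071). The summed monocyte markers were also highest in IRF8KO replicate 2, at 55.6 CPM against 0.83 to 4.33 CPM elsewhere. Chil3 (34.6 CPM), Hp (9.33) and Plac8 (4.67) carried that sum, whereas Ccr2 and Vcan were at 0 in this library and Fn1 was higher in IRF8KO replicate 1. Fn1, the 1 monocyte marker tested, was called higher, with 2 counts in WT and 81 in IRF8KO (edgeR adjusted p = 0.0066). Cebpb was at 769 CPM in IRF8KO replicate 2, between the other IRF8KO libraries, and remained called without it (edgeR adjusted p = 0.0013).

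Maf (ENSMUSG00000055435, chr8:115682942-115707794, minus strand) was less abundant than Cebpa, Cebpb and Cebpd and did not pass the test. Among all tested genes ranked by mean CPM, Maf stood at the percentile 66.1 in WT and 63.2 in IRF8KO. It had 30.9, 40.0 and 14.9 CPM in WT replicates 1, 2 and 3, and 17.2, 35.9 and 18.9 CPM in IRF8KO replicates 1, 2 and 3. WT replicate 2 was highest, IRF8KO replicate 2 was next, and WT replicate 3 was lowest. The log2 fold change of Maf was −0.25 (SE 0.42, 95% interval −1.17 to 0.66, edgeR adjusted p = 0.710). It turned to 0.07 without WT replicate 2 and to 0.72 without WT replicates 1 and 2, was −0.02 with the GC and length offset, and was called at −0.89 without WT replicate 3 and IRF8KO replicate 2 (edgeR adjusted p = 0.023).

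Within groups, the members split in a way that went with GC content and with exonic length alike, save Cebpb in IRF8KO replicate 2. Cebpb, Cebpa and Cebpd are shorter (1504, 2636 and 3746 exonic bases) than Cebpg and Maf (5621 and 8241). The part of either was not tested. In WT replicate 3 the GC-rich Cebpa and Cebpb, and Cebpd at 51.6% GC, were above WT replicates 1 and 2, by 0.70, 0.54 and 0.54 on the log2 scale. Maf (47.4% GC) and Cebpg (43.3% GC) were lower there, with log2 differences of −1.24 and −1.58. IRF8KO replicate 2 showed the opposite for 4 of the 5: Maf and Cebpg were 1.00 and 1.23 above IRF8KO replicates 1 and 3, Cebpa and Cebpd had −0.46 and −0.56, and Cebpb had 0.09. For Maf, Cebpg, Cebpa and Cebpd these differences between libraries of a group were larger in size than the difference between the groups. For Cebpb they were smaller.

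Per length, the order of the members put Cebpb first in both groups. In CPM per kilobase of exon, the WT levels were 80.6 ± 18.2 for Cebpb, 46.5 ± 11.2 for Cebpd, 35.4 ± 10.5 for Cebpa, 5.08 ± 2.55 for Cebpg and 3.47 ± 1.54 for Maf (SD, n = 3). The ranges of Cebpd and Cebpa overlapped, and so did those of Cebpg and Maf, while Cebpb stood apart from Cebpd. In IRF8KO the same scale gave 499.9 ± 123 for Cebpb, 59.3 ± 12.5 for Cebpd, 28.1 ± 7.53 for Cebpa, 2.91 ± 1.26 for Maf and 2.67 ± 1.44 for Cebpg (SD, n = 3). There only the ranges of Maf and Cebpg overlapped among neighbours in the order. Over the bases that Cebpb does not share with Tmem189, its level was 102 ± 23.0 CPM per kilobase in WT and 631 ± 155 in IRF8KO (SD, n = 3).

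The makeup of the C/EBP transcripts shifted toward Cebpb. Their summed level per kilobase was 151, 142 and 210 in WT replicates 1, 2 and 3, and 724, 583 and 464 in IRF8KO replicates 1, 2 and 3. Cebpb made up 46.9, 48.9 and 48.4% of it among WT, and 85.2, 87.7 and 80.2% among IRF8KO. These levels rest on the unstranded count, which leaves out reads that touch the stretch shared with Tmem189. With the strand columns, which hold reads of both genes there, Cebpb made up 64.9 to 71.5% among WT and 89.9 to 94.1% among IRF8KO, and over unshared exonic bases 50.1 to 52.4% and 81.9 to 88.9%, so the groups did not overlap on any of these scales. On the unstranded count, the share of Cebpa was 20.9 ± 1.61% in WT and 4.79 ± 0.87% in IRF8KO, and that of Cebpd 27.7 ± 2.02% and 10.4 ± 3.13% (SD, n = 3). The ratio of Cebpb to Cebpa was 2.40, 2.37 and 2.13 for the WT replicates in order, and 16.9, 23.0 and 14.6 for the IRF8KO replicates; with the strand columns it was 4.34 to 6.71 and 31.6 to 51.4. This ratio needs no scaling between libraries. On the log2 scale it was 1.20 ± 0.09 in WT and 4.16 ± 0.33 in IRF8KO (SD, n = 3), a difference of 2.95 (exact permutation test, two-sided p = 0.1, the smallest that 3 against 3 libraries allow). It ranged from 2.77 to 3.10 over 9 alternatives (other counts, another length and each library left out), none of which corrects for GC; the fits with the GC and length offset gave 1.96 for Cebpb and −0.62 for Cebpa, closer together than that.

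**Figure D2:**
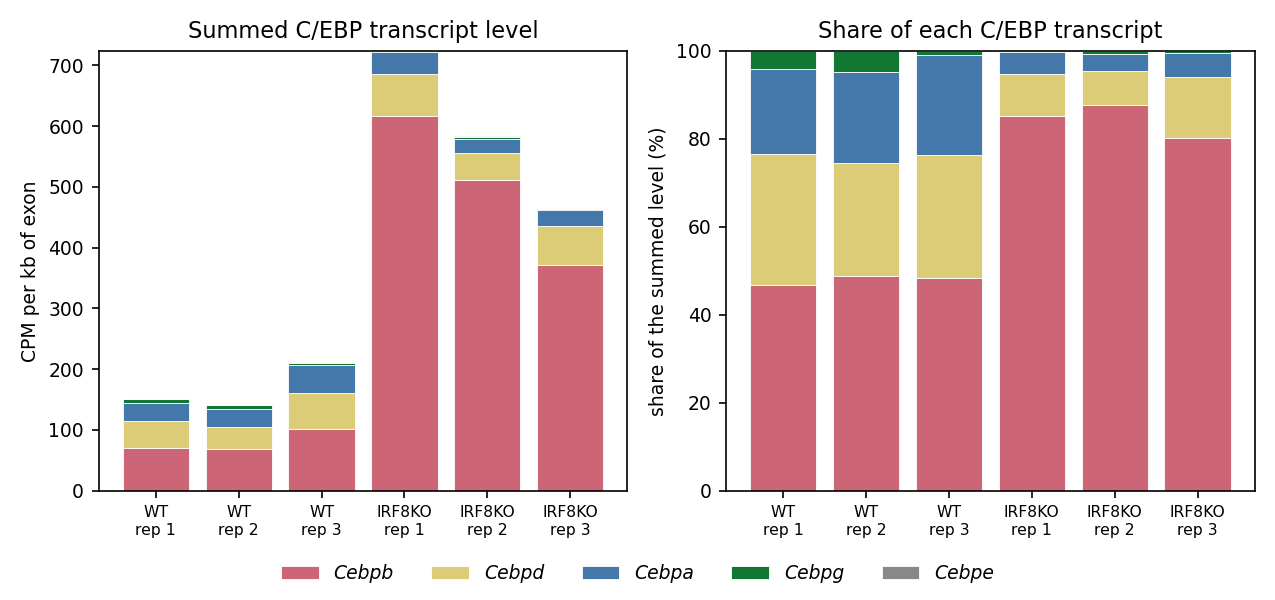
Stacked bars of the C/EBP transcripts in each library, as CPM per kilobase of exon (left) and as a share of their sum in percent (right). Cebpb takes 46.9 to 48.9% of the sum in the WT libraries and 80.2 to 87.7% in the IRF8KO libraries, where the sum is higher.

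The genes whose profiles lay nearest were found among 6173 tested genes with at least 10 CPM on average, by the root mean square distance of log2 CPM over the 6 libraries, each centred on its mean. For Cebpb they were Oas1a (0.17) and Trim25 (0.17), both antiviral genes, and Baiap2 (0.25). Oas1a had 9.73, 8.85 and 12.3 CPM in WT replicates 1 to 3, and 66.0, 50.0 and 46.4 CPM in IRF8KO replicates 1 to 3, the same order of IRF8KO libraries as Cebpb. For Cebpa they were Hs1bp3, Gga2 and Cnppd1 (each 0.06), for Cebpd Fam136a (0.06), Adck2 (0.08) and Fbxo4 (0.09), for Cebpg Slc38a2 (0.11), Yipf5 (0.12) and Gapvd1 (0.16), and for Maf Cog6 (0.06), Ifnar1 (0.08) and Dock2 (0.12). Maf and Cebpg were 0.37 apart, and Maf and Cebpb 1.59.

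Of the other large and small MAF genes, 3 of the 5 followed were tested, 1 was called lower and none higher, with a median log2 fold change of 0.44 against −0.11 for all genes. Mafk, a small MAF gene, had 41.1 ± 3.47 and 18.7 ± 3.54 CPM in WT and IRF8KO (SD, n = 3; log2 fold change −1.14, edgeR adjusted p = 0.020) and lost its call without WT replicate 2, IRF8KO replicate 1 or IRF8KO replicate 3 (adjusted p of 0.077, 0.083 and 0.114), and without WT replicates 1 and 2 (0.084), while its log2 fold change stayed between −1.20 and −0.999 in these fits. Mafg, another small MAF gene, held 116 to 118 CPM in WT and 131 to 176 CPM in IRF8KO and was not called. Mafa was at 0 in every library. Among the CNC factors, which pair with small MAF proteins, and Keap1, 5 of 7 were tested, with a median of −0.66. None was called in either direction in the edgeR test, and DESeq2 and limma-voom also called 0. At an unadjusted p under 0.05, 2 were lower. With library size alone 1 was called, and likewise with the GC and length offset, without WT replicate 3 and without IRF8KO replicate 2. The same count came without WT replicate 3 and IRF8KO replicate 2 together.

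The bZIP relatives that can pair with C/EBP proteins or share their sites moved in both directions: 11 of 12 were tested, 3 were called higher and 4 lower, with a median of −0.66. The 7 calls became 4 without WT replicate 1 or WT replicate 2, and 3 without IRF8KO replicate 1 or IRF8KO replicate 3. Jdp2, a repressor of the AP-1 family, rose from 33.6 ± 4.73 CPM in WT to 134 ± 32.5 CPM in IRF8KO (SD, n = 3; edgeR adjusted p = 7.3e-04). Nfil3 and Crem rose by 1.71 and 2.64 on the log2 scale (edgeR adjusted p of 0.0095 and 0.021); Nfil3 lost its call without IRF8KO replicate 1 (0.058), with library size alone (0.114) and with the GC and length offset (0.102), and Crem without WT replicate 1, IRF8KO replicate 1 or IRF8KO replicate 3 (0.067 to 0.072) and with library size alone (0.103). Crem was at 3.49 without WT replicate 2 and 4.79 without WT replicates 1 and 2, both called. Atf3, a stress-induced factor, had 50.6, 123 and 30.9 CPM in WT replicates 1 to 3, and 24.6, 12.4 and 7.81 CPM in IRF8KO replicates 1 to 3 (log2 fold change −2.21, edgeR adjusted p = 0.013), and lost its call without WT replicate 2 (−1.46, adjusted p = 0.071), IRF8KO replicate 3 (0.095) or WT replicates 1 and 2 (−1.05, adjusted p = 0.273). Hlf, with 96 counts summed over WT and 3 over IRF8KO, was called lower (edgeR adjusted p = 0.0086). Creb1 and Atf2 were called lower at −2.23 and −1.74, but each lost its call without WT replicate 1, WT replicate 2, IRF8KO replicate 1 or IRF8KO replicate 3 (edgeR adjusted p from 0.087 to 0.156), and Atf2 also without IRF8KO replicate 2 (0.077). Without WT replicates 1 and 2 Creb1 was at −0.14 (edgeR adjusted p = 0.943) and Atf2 at −0.97 (0.465). The GC and length offset moved Creb1 to −1.55, still called, and Atf2 to −0.97, not called (edgeR adjusted p = 0.126), and limma-voom did not call Creb1 (0.095). Ddit3 and Atf4, the stress-response partners of C/EBP-beta, were not called (log2 fold changes 0.68 and 0.51).

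Of the regulators that act on C/EBP proteins, 13 of 15 were tested and 1 was called, with a median of −0.55. That count was 5 without WT replicate 3, 7 without both WT replicate 3 and IRF8KO replicate 2, 3 with library size alone and 4 with the GC and length offset (3 with the replicate block added). Trib1, whose protein brings C/EBP-alpha to the ubiquitin ligase COP1 for degradation, fell from 108, 106 and 67.7 CPM in WT replicates 1 to 3 to 27.6, 24.4 and 35.9 CPM in IRF8KO replicates 1 to 3. The groups did not overlap (log2 fold change −1.68, SE 0.30, edgeR adjusted p = 0.0029), and the call held in every alternative run. Cop1 itself was low, at 9.92, 4.96 and 0.83 CPM in WT and at 0.80 to 3.23 CPM in IRF8KO, and was not called. Stat3, which acts upstream of Cebpd and Cebpb, was at 179 to 187 CPM in WT and 126 to 148 CPM in IRF8KO with no overlap and was not called (log2 fold change −0.44, edgeR adjusted p = 0.247). Protein levels were not measured here.

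Genes linked to C/EBP factors in macrophages and the acute-phase response did not move as one. Of 20 genes 12 were tested, 4 were called higher and 2 lower, with a median of 0.33, the same with Saa3 at its bound. The 6 calls became 10 with no filter on low counts and 3 with at least 10 counts required in every library. C3, the central complement component, rose from 1.56, 0 and 3.86 CPM in WT replicates 1 to 3 to 187, 128 and 125 CPM in IRF8KO replicates 1 to 3 (log2 fold change 6.47, SE 0.85, edgeR adjusted p = 3.5e-04). The C3 call held in every alternative that tested it, but its size rests on few WT counts: the log2 fold change was 8.31 when WT replicate 3 was left out, 5.70 when WT replicate 2 was, and 5.25 with WT replicate 3 as the lone WT library. Il1b rose from 2.24 ± 1.32 to 29.1 ± 14.7 CPM (SD, n = 3; log2 fold change 3.63, adjusted p = 9.9e-04 in the same edgeR test; 4.26 without WT replicate 2). Saa3, an acute-phase gene, had 0 counts in WT and 94 in IRF8KO, at least 31.2-fold higher. Lyz2 (lysozyme) rose from 366 ± 140 to 1119 ± 233 CPM (SD, n = 3; edgeR adjusted p = 0.0081), a log2 fold change of 1.61, though not past the threshold without IRF8KO replicate 3 (0.060) or without WT replicates 1 and 2 (log2 fold change 1.08, adjusted p = 0.071). With the GC and length offset Lyz2 was called at 0.94, and without WT replicate 3 and IRF8KO replicate 2 at 2.23. The summed border macrophage, astrocyte and neuron markers given with Cebpb were, like these 4 genes, higher in IRF8KO without overlap, though not each marker, and their part was not tested.

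In the other direction, Itgam fell by 2.36 on the log2 scale (edgeR adjusted p = 7.3e-04), where 68.7% of its exonic length overlaps another gene. Ccl2 had 24.5, 79.8 and 4.27 CPM in WT replicates 1 to 3, and 3.14 to 7.70 CPM in IRF8KO; its call at −2.87 (edgeR adjusted p = 0.026) was lost without WT replicate 2 or any 1 of the IRF8KO libraries (0.064 to 0.204) and in limma-voom (0.120), and its direction turned without WT replicates 1 and 2. Csf1r, Csf3r and Cd14, receptor genes that C/EBP factors are linked to, were not called (log2 fold changes −0.61, 0.40 and 0.25). Il12b was at 0 in every library, and Il6 was at 0 in all IRF8KO libraries and at 0.69 to 3.68 CPM in WT.

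Of 14 MAF-linked macrophage genes 8 were tested, 2 were called higher and 1 lower, with a median of −0.15, the same with Cd163 at its bound. The 3 calls became 6 with library size alone and 7 with the GC and length offset (6 with the replicate block added). Both that rose are scavenger receptors and sit in the border macrophage list as well. Cd163 had 0 counts in WT and 262 in IRF8KO, at least 87.1-fold higher, and Mrc1 had 3.70, 2.62 and 3.03 CPM in WT replicates 1 to 3, and 24.6, 60.8 and 32.5 CPM in IRF8KO replicates 1 to 3 (log2 fold change 3.67, edgeR adjusted p = 2.1e-04). Mertk, a receptor for apoptotic cells, was called lower at −1.52 (edgeR adjusted p = 0.035), a call lost without WT replicate 1, WT replicate 2, IRF8KO replicate 1 or IRF8KO replicate 3 (0.090 to 0.186) and without WT replicates 1 and 2 (−0.53, adjusted p = 0.563); without IRF8KO replicate 2 Mertk was at −2.15. C1qa, C1qb and C1qc, the subunits of complement C1q, were not called (log2 fold changes 0.48, −0.54 and −0.40). Lyve1, Timd4 and Vsig4, markers of other resident macrophages, were at 0 in every library.

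Of 4 self-renewal genes that MAF factors are known to hold back, 3 were tested and 2, Myc and Klf2, were called lower, with a median of −2.60 over the 3; Mycn, with 0 counts in WT and 1 in IRF8KO, was not tested. Myc fell from 46.3, 60.6 and 27.6 CPM in WT replicates 1 to 3 to 5.14, 7.45 and 9.44 CPM in IRF8KO replicates 1 to 3 (log2 fold change −2.60, SE 0.39, edgeR adjusted p = 9.1e-04), and was called in every alternative run, at −1.89 without WT replicates 1 and 2 (edgeR adjusted p = 0.036). Klf2 fell from 118, 139 and 21.6 CPM to 15.3, 16.2 and 6.72 CPM in the same order (edgeR adjusted p = 0.0058), and was not called without IRF8KO replicate 3 (0.055) or without WT replicates 1 and 2 (log2 fold change −0.75, adjusted p = 0.437). Klf4, at 1.52 to 7.36 CPM in WT and 0.32 to 1.53 CPM in IRF8KO, was not called (edgeR adjusted p = 0.078). Immediate early and handling genes, a list that includes the heat-shock genes Hspa1a and Hspa1b, moved with these. Of 12 tested, 10 were called lower (8 in DESeq2 and 2 in limma-voom), with a median of −3.62. Their sum was 6035, 11728 and 817 CPM in WT replicates 1, 2 and 3 against 790 to 1058 CPM in IRF8KO. WT replicate 3 was thus inside the IRF8KO range. The count of 10 fell to 3 without WT replicate 2, to 2, 4 and 1 without IRF8KO replicates 1, 2 and 3, to 2 without WT replicates 1 and 2, and to 3 with the GC and length offset and the replicate block together. Egr1, Jun, Btg2 and Hspa1b, the named genes of that list, had log2 fold changes of −6.93, −4.14, −2.83 and −5.59 and were not called without WT replicates 1 and 2 (edgeR adjusted p from 0.136 to 0.842). The part of the immediate early genes in the Myc, Klf2, Atf3 and Ccl2 differences was not tested.

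**Figure D3:**
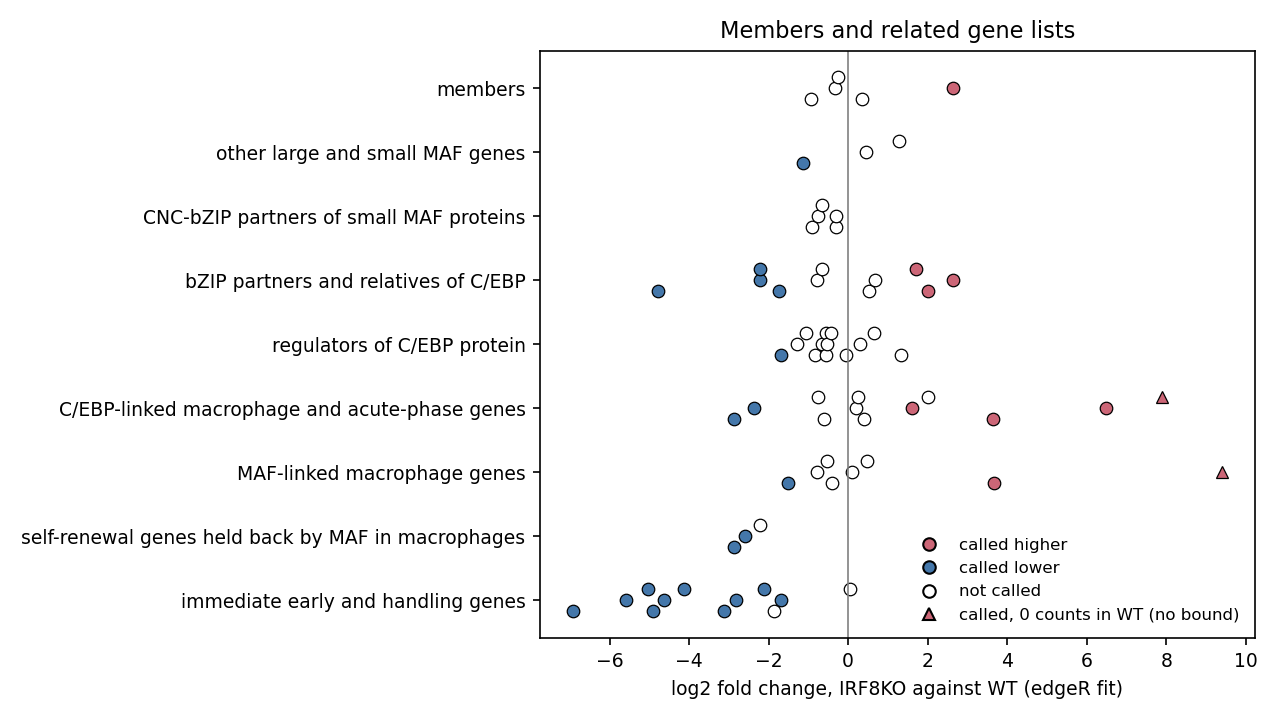
Log2 fold changes of IRF8KO against WT for each tested gene of the members and related lists, red where called higher, blue where called lower and white where not called; triangles are Saa3 and Cd163, with 0 counts in WT, whose fitted values are no bound. Cebpb, at 2.63, is the 1 member called, while 10 of 12 tested immediate early and handling genes are called lower.

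**Figure D4:**
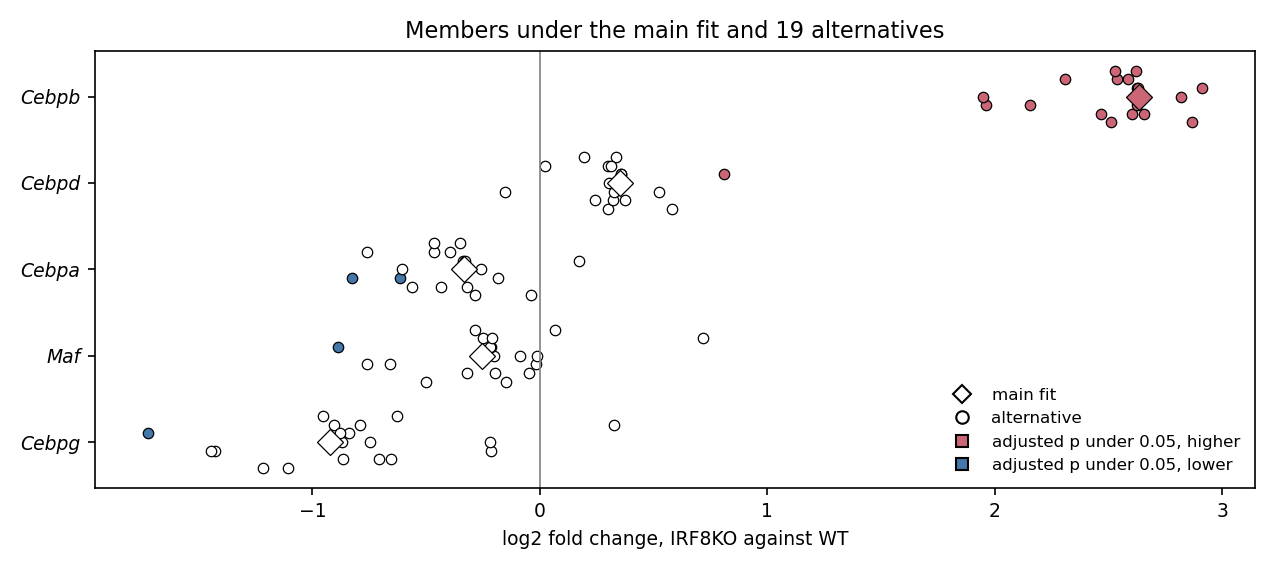
Log2 fold changes of the 5 tested members in the main fit (diamonds) and 19 alternatives (circles), filled where the adjusted p is under 0.05. All values of Cebpb are filled and lie between 1.95 and 2.91, whereas each of the other 4 members has values on both sides of 0.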

How the data were processed

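Polyadenylated RNA of sorted microglia was read with SMART-Seq v4 complementary DNA synthesis and Nextera XT libraries, per the labels' protocols. The values deposited by the authors are whole-number counts per Ensembl gene in 3 columns (unstranded and 1 per strand). The submitters' processing notes name STAR 2.5.2b, Picard 2.17.11, bcl2fastq, Subread, featureCounts and mm10; their roles and the annotation release are not given in the sources used here. The unstranded column was used, since the strand columns had nearly equal totals in each library (49.8 to 50.3% of their sum in the first), though not for each gene. Symbols, exon lengths and coordinates came from GENCODE M21, which matched 49326 of 49585 IDs. Reads assigned to no gene (2.44 to 7.70%) or to more than 1 (8.20 to 10.8%, both relative to gene counts) stayed out.

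Genes passing edgeR 4.0.16's filter (minimum count 10) were scaled by TMM and tested in a quasi-likelihood fit on genotype, with Benjamini-Hochberg adjustment over all 11041 genes; a gene is called under 0.05. CPM are counts per 1000000 of the TMM-scaled library size. The log2 CPM for profiles used a prior count of 2. Folds against 0 used a floor of 3 counts over the group. Intervals are 95% intervals of the fit. The test was checked on simulated counts with 200 changed genes. Those counts had the same variability setting for every gene and no GC pattern, so the check does not cover the GC departures of these libraries. Alternatives used DESeq2 1.42.0, limma 3.58.1 (voom), other scalings, filters and strand columns, a GC and length offset, a replicate block, and each library left out. Chosen after seeing the data were 2 alternatives that leave out pairs of libraries, and the C/EBP shares with strand columns or unshared exonic length. Members and gene lists were chosen with earlier results of these data known. A gene of the planned lists is not reported here. Named genes are the members, up to 4 called genes of smallest p per list and direction, and for each member the 3 tested genes of nearest profile. Promoters are RefSeq's, on GRCm38.p6. The labels do not say whether replicates are separate mice, so p-values measure the spread between these libraries.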

Additional observations from a re-analysis of the deposited data

How the results depend on the processing

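Over 19 alternatives, Cebpb remained called and higher, and its log2 ratio to Cebpa kept its direction in 9. The other members moved. With library size alone Cebpa was called at −0.83, Cebpd turned to −0.15 and 2 members were called. With the GC and length offset Cebpa was called at −0.62 (2 members called), though not with the replicate block added (edgeR adjusted p = 0.060). Without WT replicate 3 and IRF8KO replicate 2, Maf (−0.89), Cebpd (0.81) and Cebpg (−1.72) were called, Cebpa turned to 0.17, 4 members were called, and 5228 of all genes and 46 genes of the lists were called. Without WT replicates 1 and 2, Maf turned to 0.72, Cebpg to 0.33, Ccl2 to 0.23, Btg2 to 0.18 and Hspa1b to 3.34, with 1245 genes and 17 list genes called. Leaving out 1 library at a time gave 910 (without IRF8KO replicate 3) to 4003 (without WT replicate 3) called genes, against 2109, 12 to 42 list genes, against 30, and −0.66 to 0.068 for Maf. Scaling by library size alone moved the share of higher calls from 50.5 to 25.4%. The causes were not tested. Of the 24 genes named from the lists, 10 kept their call in every alternative that tested them.

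The deviations of same-numbered replicates from the group means correlated at −0.26 for replicate 1, 0.33 for replicate 2 and 0.11 for replicate 3. Not every pair was thus positive, and 2 of 6 libraries correlated best with their own number, so the numbers were not taken to pair the libraries. With the replicate block 2353 genes were called, 1 member was called, and Cebpb was at 2.63. Precision is limited by 3 libraries a group and, for Cebpe, by depth.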
